A study of Rattus norvegicus with 6 samples.

Results

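The heat shock genes described here are the cytosolic and mitochondrial chaperones Hspa1b, Hspa8, Hsph1, Dnajb1, Hsp90aa1, Hsp90ab1, Hspb1, Hspd1 and Hspe1 and the co-chaperone Bag3. They were chosen by name. An array probe was assigned to a gene when its transcript accession carried that symbol in the RefSeq table of rat assembly GRCr8. This gave 29 probes for 8 of the 10 genes, of 15284 symbols with a probe in all. For Hspa1b and Dnajb1 this match found no probe, and both were not analysed here.

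The tissue was renal cortex of male Sprague-Dawley rats, bought at 5 weeks of age. Of the 6 animals, 3 were given anthraquinone, a tricyclic quinone, at 1000 mg/kg/day for 4 weeks, and 3 received the vehicle, corn oil, for the same 4 weeks. The series asks how anthraquinone alters renal gene expression. RNA of every animal was labelled with 1 dye and read on a separate Agilent array. Levels are given as log2 of the background-corrected probe signal over the 75th percentile of that array, so that a level of 0 equals that percentile. The brightness of a probe depends on its sequence, so levels of different probes are not set against each other.

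Chaperones of the HSP70 family bind exposed hydrophobic stretches of unfolded proteins and release them in an ATP-driven cycle. J-domain proteins deliver the client and start ATP hydrolysis, and nucleotide exchange factors open the chaperone again. HSP90 completes the folding of kinases and steroid receptors, small heat shock proteins hold aggregating proteins, and HSP60 with its lid HSP10 folds proteins inside mitochondria. Heat, oxidants and other stresses that unfold proteins activate heat shock factor 1 (HSF1), which binds repeats of the unit GAA in alternating orientation, called heat shock elements, and raises transcription of the inducible members. Kidney tubule cells use these proteins after ischaemia and toxic injury, and cells of the renal medulla in a high-salt environment.

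None of the 8 measured heat shock genes passed the test between anthraquinone and corn oil. By limma over 32663 gene entries with Benjamini-Hochberg adjustment, 0 of 8 had an adjusted p under 0.05, against 9 entries, or 0.0276%, in the whole table. At an unadjusted p under 0.05 the count was 1 of 8, Bag3, against 17.1% of all entries. The values did not overlap between the groups, with anthraquinone higher, for 3 of the 8 genes (Bag3, Hspd1 and Hspe1), where 15% of all entries did so. That share was 59.7% among entries with a mean level of 6 or more, where Hspd1 and Hspe1 lay. With anthraquinone lower this held for 0 of the 8, where 10.2% of all entries did so. The log2 difference was above 0 for 5 of the 8, as for 51.6% of all entries, and the median over the 8 was 0.12 (-0.06 after quantile normalization), against 0.0074 over all entries. All 29 probes were well above background on all 6 arrays and none was saturated. In a separate fit of single probes 0 of the 29 passed (lowest limma adjusted p = 0.189), where 0.0339% of 41310 probes did.

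**Figure D1:**
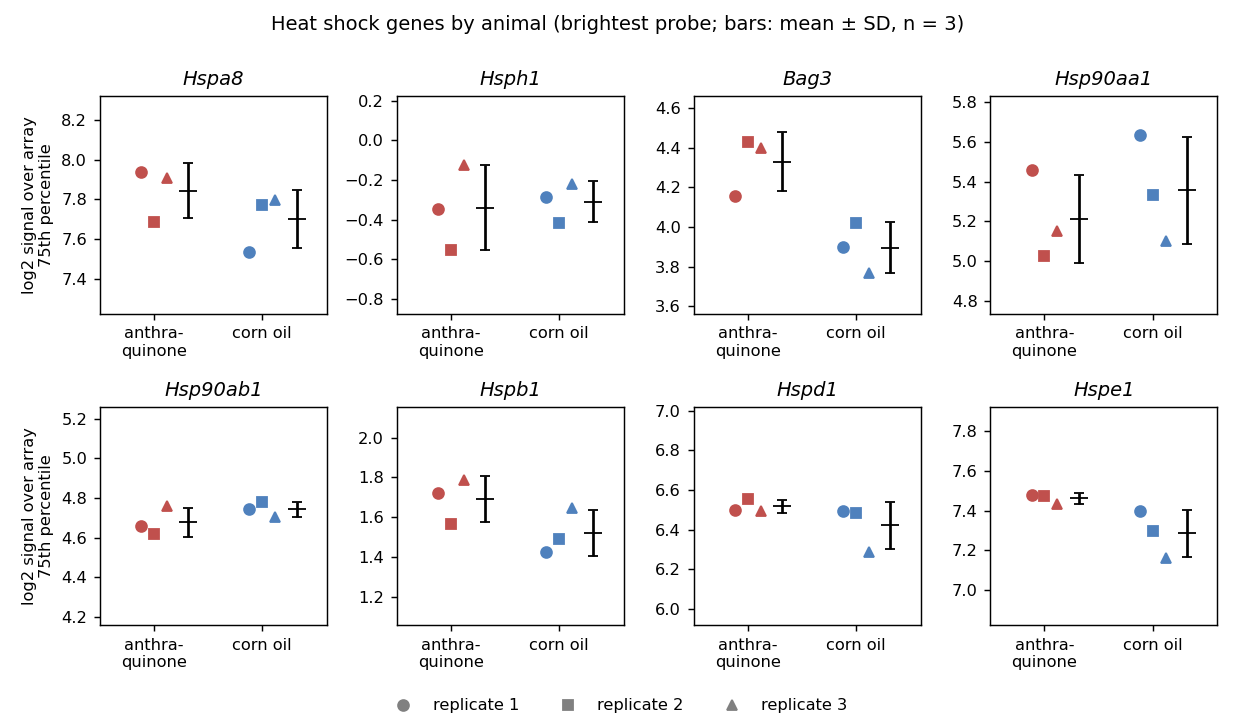
Level of each measured heat shock gene on its brightest probe, as log2 signal over the array's 75th percentile, with 1 symbol per animal, anthraquinone left and corn oil right, and black bars for mean ± SD (n = 3). Every panel spans the same height on the log2 scale; Bag3 shows the widest gap between the groups, and the values of Hspa8, Hsph1, Hsp90aa1, Hsp90ab1 and Hspb1 overlap.

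The arrays themselves differed between the groups in some respects. The 75th percentile of the signal was 844 to 880 in anthraquinone and 903 to 1191 in corn oil arrays, and 64.2 to 66.1% of probes with anthraquinone and 68.7 to 70.7% with corn oil were well above background. Corn oil animal 1 was alone on 1 slide and the other 5 animals shared a second. On the shared slide all anthraquinone arrays lay in row 2 and both corn oil arrays in row 1, so group and row cannot be told apart there. Of the markers of proximal tubule, the main cell type of cortex, 10 of 10 were well above background on all arrays, with a summed linear signal of 1918 to 2238 times the 75th percentile in anthraquinone and 1846 to 2177 in corn oil. Summed signals of other cells the cortex may hold also overlapped between the groups for the thick ascending limb, collecting duct, endothelium, smooth muscle, fibroblast and leukocyte lists, and for 6 markers of inner medulla and osmotic response (11.2 to 13.1 with anthraquinone, 11.9 to 14.0 with corn oil). Single markers of these lists did differ in places. Of 9 collecting duct markers 5 had an unadjusted p under 0.05 (55.6%, against 17.1% of all entries), with a median difference of -0.34. Without overlap, 3 lay below and 2 above the controls, against 10.2% and 15% of all entries. Of 7 tested leukocyte markers 2 lay below without overlap (28.6%, against 10.2%), with a median of -0.23. Of 4 tested thick ascending limb and distal convoluted tubule markers 0 had a difference above 0, against 51.6% of all entries. Of these 4 markers 1 lay below without overlap (25%, against 10.2%), and the median was -0.29. Of 6 podocyte markers 2 lay below without overlap (33.3%, against 10.2%). Over all entries 0 markers of these lists passed. Podocyte markers summed to 32.3 to 34.6 with anthraquinone and 34.6 to 36.3 with corn oil, and 2 markers of the other lists, Pvalb and Lum, had no probe well above background. The 3 measured red cell markers summed to 289 to 383 with anthraquinone and 192 to 234 with corn oil, without overlap, and the part of these marker differences in the values of the heat shock genes was not tested. In bulk tissue, fewer cells of a type and less RNA per cell cannot be told apart.

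Bag3, a nucleotide exchange factor that couples HSP70 to the autophagic clearance of damaged proteins, had the largest difference of the 8. Its probe read 4.16, 4.43 and 4.40 in anthraquinone animals 1, 2 and 3, and 3.90, 4.02 and 3.77 in corn oil animals 1, 2 and 3. The lowest anthraquinone animal thus lay above the highest corn oil animal. The means were 4.33 ± 0.15 with anthraquinone and 3.90 ± 0.13 with corn oil (SD, n = 3 each), a difference of 0.43 ± 0.11 on the log2 scale (SE), or 1.35-fold (95% interval 1.12 to 1.63). The limma adjusted p over all entries was 0.197, so Bag3 did not pass. The difference was between 0.33 and 0.52 under all 21 settings run, with limma adjusted p from 0.0748 to 0.389. Bag3 is covered by 1 probe, so no second probe bears on it.

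The sequence before the start of Bag3 is shown because this gene had the largest difference, and heat shock elements are how HSF1 reaches its targets. The 250 bases upstream of its start, from RefSeq on GRCr8 at chr1:192533210-192533459 on the plus strand, are printed 5′ to 3′, with capitals for matches to GAANNTTC or TTCNNGAA, inverted pairs of the unit that each read the same on both strands.
Bag3: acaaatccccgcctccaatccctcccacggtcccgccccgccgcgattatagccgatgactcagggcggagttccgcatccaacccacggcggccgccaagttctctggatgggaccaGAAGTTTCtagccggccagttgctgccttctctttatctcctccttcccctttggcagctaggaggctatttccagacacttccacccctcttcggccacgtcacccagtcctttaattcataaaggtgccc
It held 1 such match, between 132 and 125 bases before the start. Of 33469 rat promoters in the table, 13.5% held a match of either kind in the same window. A match is a run of letters and does not show that the factor binds there.

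Hspa8, the constitutive cytosolic HSP70 (Hsc70), was measured by 8 probes. The brightest read 7.94, 7.68 and 7.91 in the anthraquinone animals and 7.53, 7.77 and 7.80 in the corn oil animals, so that the groups overlapped. The difference was 0.14 ± 0.11 (SE, limma adjusted p = 0.553), with a 95% interval of -0.13 to 0.42. Over the 8 probes the difference ran from -0.02 to 0.14. The probes shared their lowest animal within each group. All 8 were lowest in anthraquinone animal 2 among the treated and lowest in corn oil animal 1 among the controls. Within the anthraquinone group the probes spanned 0.25 to 0.36, and within corn oil 0.19 to 0.31, both wider than the largest difference between the groups. Without corn oil animal 1 the difference on the brightest probe was 0.06, and without anthraquinone animal 2 it was 0.22.

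The same window before Hspa8 held more exact matches to these pairs than that of Bag3, and is printed for that contrast. Imperfect pairs and bases farther upstream were not searched, and binding of HSF1 was not tested. The window lies on GRCr8 at chr8:50080264-50080513, plus strand, capitals as above.
Hspa8: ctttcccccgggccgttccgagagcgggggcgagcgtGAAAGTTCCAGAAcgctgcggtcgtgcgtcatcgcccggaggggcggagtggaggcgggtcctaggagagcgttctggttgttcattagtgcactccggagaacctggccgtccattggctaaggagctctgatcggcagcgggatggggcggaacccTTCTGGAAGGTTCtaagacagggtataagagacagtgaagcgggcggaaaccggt
Both runs in capitals are also matches to the longer form of 3 units, in which GAANNTTC is followed after any 2 bases by GAA, searched on both strands, and which overlaps the shorter ones. That form was found in 0.663% of all promoters of this length. Of the heat shock genes 8 had an entry in the promoter table (Hsp90aa1 and Hspa1b did not), 7 held a pair of units, and 4 held the longer form, namely Hspa8, Hsph1, Hspd1 and Hspe1.

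Hsph1 encodes HSP110, a stress-inducible exchange factor of HSP70. It read -0.35, -0.55 and -0.12 in the anthraquinone animals and -0.29, -0.42 and -0.22 in the corn oil animals. The anthraquinone animals spread on both sides of the controls, and the difference was -0.03 ± 0.13 (SE, limma adjusted p = 0.925, 95% interval -0.34 to 0.28). Hspb1, the small heat shock protein HSP27, which binds actin and holds unfolding proteins, read 1.72, 1.56 and 1.79 with anthraquinone and 1.43, 1.49 and 1.65 with corn oil. Corn oil animal 3 lay above anthraquinone animal 2, and the difference of 0.17 ± 0.10 (SE) did not pass (limma adjusted p = 0.417, 95% interval -0.07 to 0.41). Both genes rest on 1 probe each.

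The cytosolic HSP90 genes had differences below 0 on every probe at this scaling, all within the spread of the animals. Hsp90aa1, the stress-inducible form, read 5.46, 5.03 and 5.15 with anthraquinone and 5.64, 5.33 and 5.10 with corn oil on its brightest probe. The difference was -0.14 ± 0.17 (SE, limma adjusted p = 0.710, 95% interval -0.57 to 0.28), and the 6 probes ran from -0.20 to -0.06. As with Hspa8, the probes kept the order of certain animals. All 6 were highest in anthraquinone animal 1 among the treated, and all 6 had corn oil animal 1 highest and corn oil animal 3 lowest among the controls. Without corn oil animal 1, which lay alone on its slide, the difference on the brightest probe was -0.0033, and without corn oil animal 3 it was -0.27.

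Hsp90ab1, the constitutive form, was the steadiest of the 8 genes over the animals. Its brightest probe read 4.66, 4.62 and 4.76 with anthraquinone and 4.75, 4.78 and 4.70 with corn oil, an SD of 0.06 over the 6 arrays. The difference was -0.07 ± 0.07 (SE, limma adjusted p = 0.687, 95% interval -0.24 to 0.11). Without anthraquinone animal 2 it was -0.04 and without anthraquinone animal 3 it was -0.11. The 5 probes ran from -0.14 to -0.02. Probe A_44_P287194 varied more than the brightest probe, with 4.70, 4.27 and 4.56 in the anthraquinone animals and 4.90, 4.63 and 4.43 in the corn oil animals. This is the same order of animals, in both groups, as on the brightest Hsp90aa1 probe. Hsp90aa1 and Hsp90ab1 are close paralogs, and hybridisation of 1 transcript to the probe of the other was not tested.

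**Figure D2:**
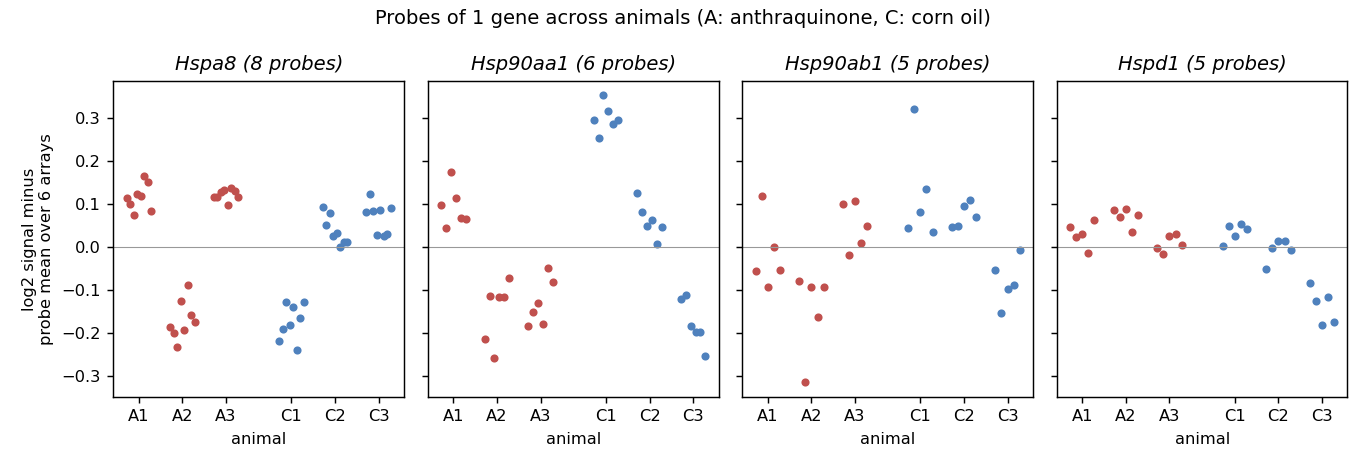
Signal of each probe of Hspa8, Hsp90aa1, Hsp90ab1 and Hspd1 in the 6 animals (A1 to A3 anthraquinone, C1 to C3 corn oil), as log2 signal minus the probe's mean over the arrays, with 1 point per probe. The 8 Hspa8 probes are all lowest in A2 and C1 within their groups, and the 6 Hsp90aa1 probes are all highest in A1 and C1. The Hsp90ab1 points farthest from 0, at C1 and A2, are of probe A_44_P287194.

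The mitochondrial pair Hspd1 and Hspe1 encodes HSP60 and HSP10, the barrel and lid of the matrix chaperonin. Hspe1 read 7.48, 7.47 and 7.43 with anthraquinone and 7.40, 7.30 and 7.16 with corn oil. All 3 treated animals lay above all controls, with a difference of 0.18 ± 0.08 (SE, limma adjusted p = 0.343, 95% interval -0.03 to 0.38), or 1.13-fold, that was -0.03 after quantile normalization. Its second probe gave 0.11 and there the groups overlapped. Hspd1 read 6.50, 6.56 and 6.50 with anthraquinone and 6.49, 6.48 and 6.29 with corn oil, a difference of 0.10 ± 0.08 (SE, limma adjusted p = 0.597, 95% interval -0.11 to 0.30) that was -0.08 after quantile normalization. On this probe the treated animals lay above the controls by less than 0.01. The 5 Hspd1 probes ran from 0.03 to 0.10, and the groups were apart on 1 of the 5. Corn oil animal 3 was lowest among the controls on all 5 probes of Hspd1 and both probes of Hspe1. Without it the difference was 0.03 for Hspd1 and 0.12 for Hspe1.

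Hspd1 and Hspe1 lie head to head, with 289 bases between the starts used in the promoter table, so that 1 stretch is upstream of both. It is printed because the pair shares it, on the plus strand, which is the sense of Hspe1, at chr9:64084077-64084326 on GRCr8.
Hspe1: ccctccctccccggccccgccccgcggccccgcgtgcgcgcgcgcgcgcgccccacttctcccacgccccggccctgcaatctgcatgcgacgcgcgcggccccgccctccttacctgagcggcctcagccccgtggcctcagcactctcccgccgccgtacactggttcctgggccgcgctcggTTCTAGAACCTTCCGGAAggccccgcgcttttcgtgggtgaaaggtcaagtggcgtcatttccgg
Capitals again mark exact matches to these pairs or to the longer form, here 1 run of overlapping matches between 65 and 48 bases before the start of Hspe1. Of this stretch and the Hspd1 window, 211 bases are the same sequence read from opposite strands, and the run in capitals lies in the shared part.

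**Figure D3:**
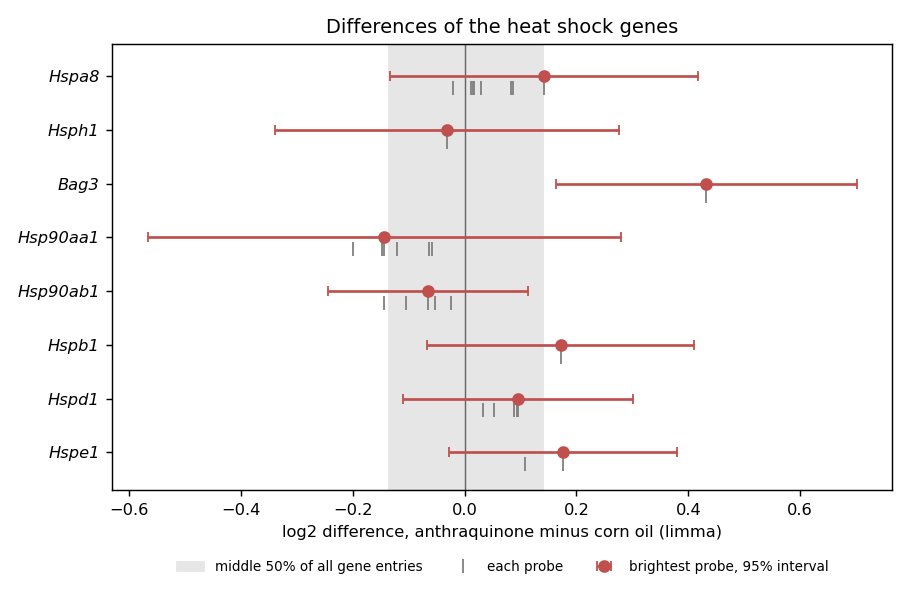
Log2 difference, anthraquinone minus corn oil, of each heat shock gene on its brightest probe with the 95% interval of limma (red), and of each single probe (grey ticks below). The grey band holds the middle 50% of all gene entries, -0.14 to 0.14; the interval includes 0 for 7 of the 8 genes, all but Bag3.

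The size of a change that these intervals leave possible differs by gene. For the 7 genes other than Bag3 the lowest bound was -0.57 (Hsp90aa1) and the highest 0.42 (Hspa8). The narrowest interval, that of Hsp90ab1, corresponds to a fold of 0.844 to 1.08. The widest, that of Hsp90aa1, corresponds to a fold of 0.675 to 1.21. All these bounds hold only for the scaling of the main fit. After quantile normalization the log2 differences were lower, at -0.173 ± 0.067 for Hsp90ab1 and -0.277 ± 0.180 for Hsp90aa1 (SE). With median scaling they were higher, at -0.037 ± 0.078 and -0.115 ± 0.188 (SE). Intervals under these other scalings are not given here.

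Differences in the whole table varied with signal level. Among the 972 entries with a mean level of 6 or more the median difference was 0.19, and 59.7% had anthraquinone above corn oil without overlap. For the 2008 entries between 4 and 6 these values were 0.13 and 45.1%, and for the 5296 entries below -4 they were -0.11 and 4.06%. Hspa8, Hspd1 and Hspe1 lay in the highest band, with differences of 0.14, 0.10 and 0.18 that are below the median of that band. Bag3, Hsp90aa1 and Hsp90ab1 lay between 4 and 6, where Bag3 (0.43) was above and both HSP90 genes (-0.14 and -0.07) were below the median.

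Scalings that level out such a dependence turned the sign of the bright genes. Quantile normalization gave -0.09 for Hspa8, -0.08 for Hspd1 and -0.03 for Hspe1, and cyclic loess gave -0.05, -0.06 and -0.0037. The median over the 8 genes was then -0.06 and -0.04. Bag3 kept a difference of 0.35 and 0.33, Hspb1 of 0.15 and 0.14, and the HSP90 genes went further below 0, to -0.28 and -0.27 for Hsp90aa1 and -0.17 and -0.18 for Hsp90ab1. No direction is therefore given for Hspa8, Hspd1 or Hspe1.

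**Figure D4:**
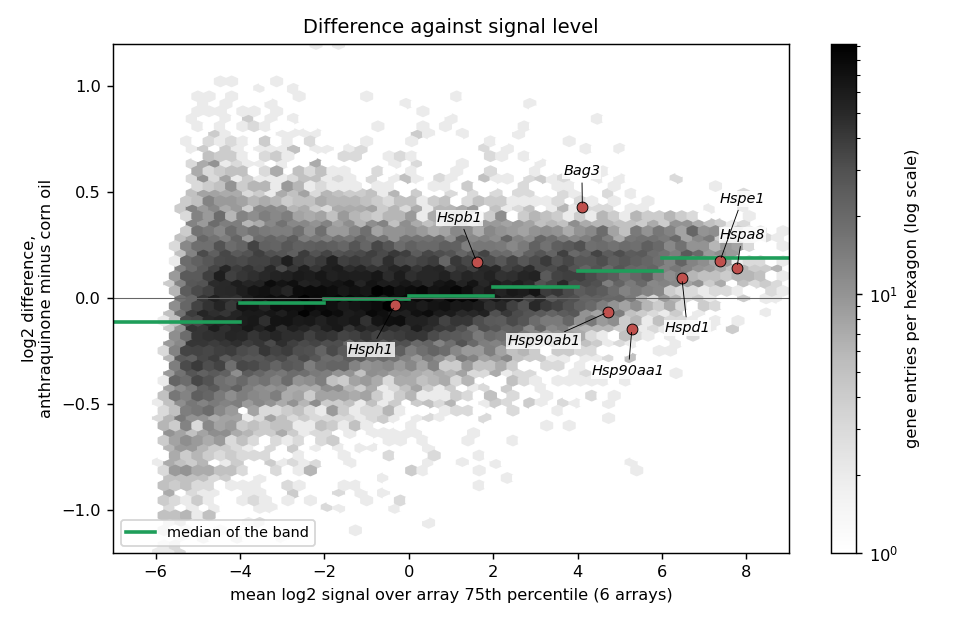
Log2 difference, anthraquinone minus corn oil, against the mean log2 level over the 6 arrays for all gene entries (grey hexagons, darker where more entries fall, log colour scale), with the median of each band of level (green) and the heat shock genes (red). The band medians run from -0.11 at the dim end to 0.19 at the bright end, and Bag3 (0.43) lies above its band while Hsp90aa1 (-0.14) and Hsp90ab1 (-0.07) lie below theirs.

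Other genes of the chaperone network were taken from 9 lists, in which 93 genes had a probe and 90 were tested. Over all entries 0 of the 90 passed in limma (lowest adjusted p = 0.154). Without the filter on dim probes 3 (Sqstm1, Pfdn6 and Dnajc5) did so, where 6611 of 49481 entries passed. At an unadjusted p under 0.05, 16 were higher and 1 lower, 18.9% in all, against the 17.1% of all entries. Their median difference was 0.10, and 0.04 after quantile normalization and 0.02 after cyclic loess. The groups did not overlap in 27 genes with anthraquinone higher, 30% against 15%, and in 4 with anthraquinone lower, 4.44% against 10.2%. The share of all entries higher without overlap rose with signal level. It was 4.06% below -4, 24.8% from 2 to 4, 45.1% from 4 to 6 and 59.7% from 6 upward. The 15% given here and for the lists below is not matched to the levels of these genes.

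Hspa1a, the stress-inducible HSP70, is a near-identical copy of Hspa1b, and the RefSeq table gives Hspa1b among its older names, so its 1 probe may read either transcript. It is named here for that reason, after its values were seen. It read -2.40, -2.48 and -2.19 with anthraquinone and -2.25, -2.13 and -2.18 with corn oil, a difference of -0.16 ± 0.10 (SE, limma adjusted p = 0.438). Anthraquinone animal 3 lay among the controls, so the groups overlapped. Of the 6 tested genes in the list of other HSP70 and HSP110 members 5 were below 0 and 1 above, where 51.6% of all entries were above 0. The median of this list was -0.16, and -0.10 to -0.18 under the other scalings. Hsf1 itself, also named after its values were seen, differed by -0.03 ± 0.07 (SE, limma adjusted p = 0.838). Among the 4 tested heat shock factor genes the groups were apart for Hsbp1 only, with anthraquinone lower (25%, against 10.2% of all entries). Hsbp1 encodes a small protein that binds and restrains HSF1, and differed by -0.17 ± 0.07 (SE, limma adjusted p = 0.300). A second Hsbp1 probe gave -0.02 with overlap.

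Co-chaperones of HSP90 held the largest difference of the network. Fkbp5, an immunophilin that slows steroid receptor activation and is itself induced by glucocorticoid, read 2.30, 3.70 and 3.07 with anthraquinone and 1.66, 1.58 and 1.69 with corn oil. All treated animals were above all controls but differed widely from each other, and the difference of 1.38 ± 0.33 (SE) did not pass (limma adjusted p = 0.191). Its other probes gave 0.96 and 1.27. Ptges3, the p23 co-chaperone that stabilises the closed HSP90 dimer, differed by 0.30 ± 0.08 (SE, limma adjusted p = 0.199), and by 0.21 after quantile normalization and 0.20 after cyclic loess. Of the 14 tested genes in this list 0 passed, 5 lay above the controls without overlap, against 15% of all entries, and the median was 0.11, which was 0.05 after quantile normalization and 0.03 after cyclic loess.

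In the J-domain list, which also passed 0 of 13 genes, Dnajb6, which keeps aggregation-prone proteins soluble, read 1.64, 1.76 and 2.20 with anthraquinone and 1.48, 1.36 and 1.33 with corn oil (difference 0.48 ± 0.15 SE, limma adjusted p = 0.229). The other probes of Dnajb6 gave 0.57 without and 0.15 with overlap. Dnajc5, the cysteine string protein, differed by 0.36 ± 0.08 (SE, limma adjusted p = 0.188) and Dnaja4 by -0.25 ± 0.10 (SE, limma adjusted p = 0.269), both without overlap. In all 6 of the 13 genes lay above the controls without overlap, against 15% of all entries, and 1 below, against 10.2%. Among 9 exchange factors and regulators of HSP70, all had differences above 0, where 51.6% of all entries did. After quantile normalization this held for 7 of the 9. At an unadjusted p under 0.05 the count was 0 of the 9, against 17.1% of all entries. The treated animals lay above the controls in 4 of the 9, against 15% of all entries, among them those of the exchange factors Hspbp1 (0.17) and Bag5 (0.13), and 0 of the 9 passed. A second Bag5 probe gave 0.05 with overlap.

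The mitochondrial list had 13 of 14 genes above 0, against 51.6% of all entries, and kept 13 of 14 after quantile normalization. Of all entries with a mean level from 2 to 4, 64.8% were above 0, and from 4 to 6 79.2% were. The median of the list was 0.15, and 0.12 after quantile normalization. None of the 14 passed over all entries, and 5 had an unadjusted p under 0.05, against 17.1% of all entries. Without overlap 5 lay above the controls, against 15% of all entries, and 1 below, against 10.2%. Hspa9, the mitochondrial HSP70 that pulls precursors through the inner membrane, read 2.48, 2.58 and 2.73 with anthraquinone and 2.31, 2.31 and 2.30 with corn oil (difference 0.29 ± 0.09 SE, limma adjusted p = 0.212). Grpel1, its exchange factor, read 4.39, 4.56 and 4.54 with anthraquinone and 4.19, 4.20 and 4.23 with corn oil (difference 0.29 ± 0.08 SE, limma adjusted p = 0.202). For both genes the treated animals lay above the controls, and a second Hspa9 probe gave 0.32. After quantile normalization the differences were 0.26 for Hspa9 and 0.19 for Grpel1. Htra2, a protease of the intermembrane space, had treated animals below the controls, at -0.09 ± 0.07 (SE, limma adjusted p = 0.553).

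For the cytosolic chaperonin TRiC and prefoldin, which fold actin and tubulin, the median over 12 genes was 0.10, and -0.0082 after quantile normalization, with 0 past the test. Of the 12 genes 4 lay above the controls without overlap, against 15% of all entries, and 1 below, against 10.2%. The prefoldin subunit genes Pfdn6 (0.36 ± 0.08) and Pfdn2 (0.32 ± 0.08) were above and Pfdn5 (-0.08 ± 0.07) was below the controls without overlap (SE). After quantile normalization these differences were 0.30 for Pfdn6, 0.23 for Pfdn2 and -0.16 for Pfdn5. A second Pfdn2 probe gave 0.08. The 7 other small heat shock protein genes had a median of 0.10, with 0 past the test and no gene with groups apart.

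Among 11 tested HSF1 targets outside the chaperone families 0 passed, and the differences ran from -0.61 to 0.71. Of the 11 genes 3 lay above the controls without overlap, against 15% of all entries, and 0 below, against 10.2%. Sqstm1, the autophagy receptor p62 and also a known Nrf2 target, read 5.18, 5.26 and 5.48 with anthraquinone and 4.46, 4.54 and 4.77 with corn oil. All treated animals were above all controls, and the difference was 0.71 ± 0.12 (SE, limma adjusted p = 0.154), or 0.60 after quantile normalization and 0.60 after cyclic loess. Its 5 probes ran from 0.71 to 1.03, and in the fit of single probes Sqstm1 probe A_64_P149735 passed (limma adjusted p = 0.0401). The gene passed in 2 of the 21 alternative settings, with the most variable probe of each gene or without the filter on dim probes. With the former 10 of 32663 entries passed, and with the latter 6611 of 49481.

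**Figure D5:**
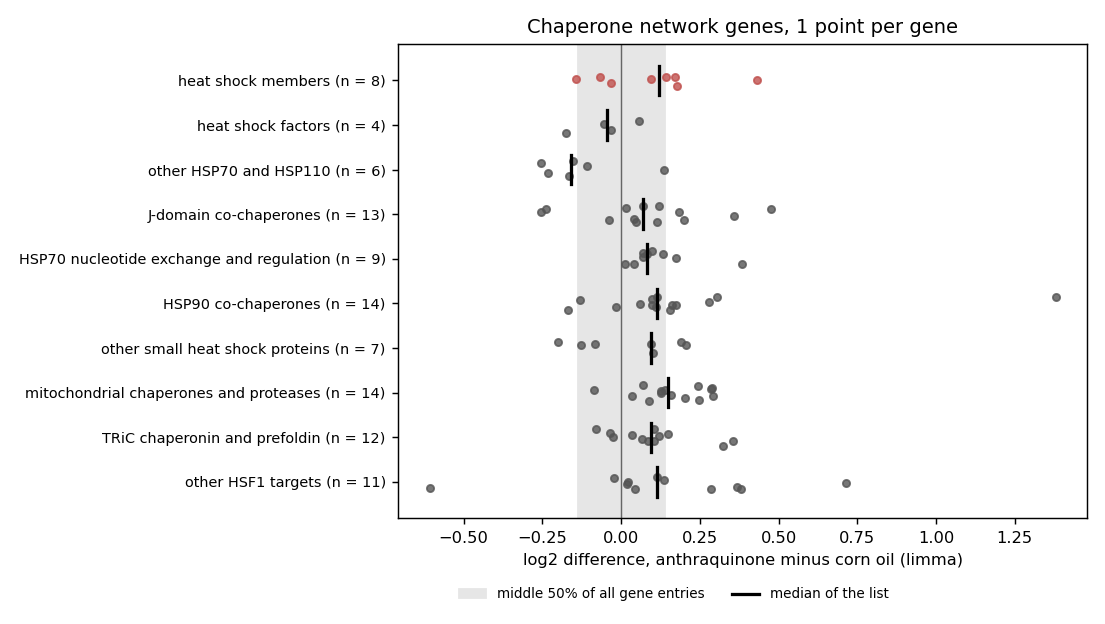
Log2 difference, anthraquinone minus corn oil, of each tested gene in the heat shock group (red) and in 9 lists of other chaperone network genes (grey points, with vertical jitter for visibility only), with the median of each list as a black bar and the middle 50% of all gene entries as a grey band. The list medians lie between -0.16 and 0.15 (that of TRiC and prefoldin at 0.10 here and at -0.0082 after quantile normalization), and Fkbp5 at 1.38 lies farthest from 0.

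Profiles over the 6 animals were compared for Bag3 and Hsp90aa1, the 2 heat shock genes with the largest SD over the arrays (0.27 and 0.23), with each profile centred on its own mean. Of 11827 other symbols, those with the smallest root mean square difference from Bag3 were Hyal2 (0.053), H1f5 (0.058) and C20h6orf89 (0.062), on the log2 scale. For Hsp90aa1 they were Adal (0.056), Ebi3 (0.057) and Nup205 (0.062). No other heat shock gene was among these, but 3 of 11827 symbols are too few to tell whether the heat shock genes vary together.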

How the data were processed

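Total RNA of renal cortex from 6 rats was labelled with Cy3 and hybridised to 1 Agilent array per animal, and groups and replicate numbers come from the sample titles. Per the file headers, the deposited scanner intensity was written by Feature Extraction 10.7.1.1 (version 10.7 per the submitters' processing notes), corrected for background and spatial trend but not scaled between arrays. The authors' deposited value table holds linear intensity per probe and matched the scanner values divided by each array's 75th percentile (90.7 to 97.0% of probes within 0.01 log2 of 1 constant per array; column medians 0.109, 0.111 and 0.110 with anthraquinone and 0.109, 0.113 and 0.114 with corn oil). It is not centred by gene, and no header states its scale.

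From 61657 non-control probes per array, 2 to 13 outlier spots were left out. The log2 processed signal minus the array's 75th percentile was compared between groups, with no other term, by limma 3.58.1 under R 4.3.3. An entry was tested if every array of 1 group or the other had it well above background. The 27460 probes matched by accession to GRCr8 symbols were reduced to the brightest probe per symbol, and unnamed probes stood for themselves, giving 32663 entries. The array design is annotated on another assembly, so GRCr8 was used for names and promoter sequences only. P-values measure the spread between 3 animals per group, and precision is limited by the 6 arrays. The procedure was tested on simulated data.

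The heat shock genes, the other chaperone lists and the marker lists were chosen with earlier results of these data known. All 10 heat shock genes are named whatever their result. From each chaperone list the genes past the threshold are named, and up to 2 per direction with the largest difference among those with groups apart; 1 gene chosen this way is not reported here. The 3 nearest profiles are named for the 2 heat shock genes with the largest SD. The bands of signal level were added after seeing the data. The animals were treated as unpaired in the main fit. Deviations of same-numbered animals from their group means correlated at 0.03, -0.06 and -0.0074 across entries, and those of differently numbered animals at -0.10 to 0.11. Such correlations cannot show whether the animals were paired in the experiment. Alternatives were other scalings, background correction (normexp, offset 50, on median spot signals), filters, probe choices, variance models, array weights, slide and replicate blocks, an adjusted p of 0.1, the value table, and each array left out.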

Additional observations from a re-analysis of the deposited data

How the results depend on the processing

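No heat shock gene passed the threshold under any of the 21 alternatives. The count of all entries past it was 9 and was 16 with normexp (7 higher, 9 lower), 58 with a variance trend, 54 at an adjusted p of 0.1, 2 with the slide as a block (which removes corn oil replicate 1, alone on its slide) and 1 with the replicate block, under which Bag3 kept 0.43 (limma adjusted p = 0.307). Without the filter on dim probes it was 6611 of 49481 entries (6053 higher, 558 lower). With each array left out it ranged from 1 to 25. Median scaling gave 5 higher and 1 lower, against 5 and 4.

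The median difference of the 8 genes was 0.12 and ranged from 0.07 to 0.14 with each array left out. It was 0.06 (0.059) when probes were averaged by gene and 0.0626 with the most variable probe. It was -0.06 with quantile normalization (-0.0559) and -0.04 with cyclic loess (-0.0363). Reversed single genes were, with quantile normalization, Hspa8 (-0.0916), Hspd1 (-0.0803) and Hspe1 (-0.0273), with cyclic loess, Hspa8 (-0.048), Hspd1 (-0.0601) and Hspe1 (-0.0037), and Hsph1 with normexp (0.0094), without anthraquinone replicate 2 (0.0741) and without corn oil replicate 3 (0.0134). With each array left out Hsph1 ranged from -0.1398 to 0.0741. The cause was not tested. Every other value of the 8 genes kept its sign under the alternatives run.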
